A study of Mus musculus with 12 samples.

Results

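The genes described here encode the subunits of the proteasome, together with the assembly chaperones and activators that carry the same family symbols. They were chosen by symbol, as Psma, Psmb, Psmc or Psmd followed by a number, or Psme1 to Psme4, and Psmb8 and Psmb9 were left out. Of the 55401 genes in the table, 41 matched, and the 39 with a mean of at least 1 CPM over all libraries were used. CPM, the unit used throughout, are counts scaled to a common library size (counts per 1e6), computed with library sizes scaled by TMM factors (trimmed mean of M-values). The 39 genes comprise 7 of the 20S alpha ring, 8 of the 20S beta ring, 6 ATPases of the 19S particle, 14 Psmd genes of the 19S particle and its assembly, and 4 activators. Both genes that fell under the threshold are known for tissue-restricted proteasomes. Psma8, an alpha subunit of the testis, had between 0.134 and 0.875 CPM, and Psmb11, a beta subunit of the thymus, had counts in just 2 libraries, of 4 and 8.

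RNA sequencing was done on whole liver from male mice aged 7 to 10 weeks, with 3 libraries in each of 4 groups. Control mice (FBXL5F/F) carried floxed Fbxl5 alleles, and FBXL5ΔDC mice (Cd11c-Cre/Fbxl5F/F) carried in addition a Cre driven by the Cd11c promoter, whose main site of activity is the dendritic cell. The floxed alleles are thus shared by all 4 groups. Fbxl5 encodes a ubiquitin ligase subunit that senses iron. Livers were untreated (0 h) or taken 6 h after acetaminophen, a drug that injures the liver in overdose. The dose was given as 300 or 500 mg/kg without saying which applied here, and injected mice had fasted for 16 h, while fasting of the 0 h mice was not stated. The labels give each library a replicate number and do not say how litters or cages were spread over groups, so the p-values measure the spread between these samples. In whole-liver RNA, fewer cells of a type and less RNA per cell cannot be told apart.

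The proteasome is the protease that destroys proteins tagged with ubiquitin. Its 20S core is a stack of outer alpha rings, which gate the entry, and inner beta rings, which hold the cutting sites, and the 19S particle recognises, unfolds and feeds in the substrate. When proteasome activity falls short, the transcription factor NRF1 (Nfe2l1) is known to raise the subunit genes together, and acetaminophen is known for a reactive metabolite that binds proteins in hepatocytes.

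Before any comparison, 1 library stood apart from its label. On the first principal component of log2 CPM, which held 39.8% of the variance, replicates 1 and 2 of the treated control group lay at -9.46 and -8.18. Replicate 3 lay at 86.8, beside the treated FBXL5ΔDC libraries (97.7 to 107), and the untreated libraries lay between -67.0 and -57.5. Counts of members called in comparisons with the treated control group are therefore also given without replicate 3. Total counts ran from 67173096 to 72512319 per library, and each of the 39 genes had between 375 and 21540 counts in every library. The summed CPM of 6 hepatocyte markers was 65634 to 86431 in the untreated libraries and in replicates 1 and 2 of the treated control group. It was 111729 in replicate 3 of that group and 102727 to 136844 in the treated FBXL5ΔDC libraries. The summed CPM of 6 dendritic cell markers was low, at 4.12 to 7.38 per library, and 2 to 6 of them reached 12 counts. Itgax, the gene of Cd11c and 1 of these markers, had between 0 and 0.584 CPM.

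The start regions of the 8 members below are shown because these genes passed the test in 1 or more of the comparisons that follow and had a single RefSeq window. Each line gives the 250 bases before the start from RefSeq (GRCm38.p6), read 5′ to 3′ along the gene. Capitals mark matches to 3 motifs searched on both strands, which were TGACNNNGC (the core of the antioxidant response element that NRF factors bind), CCAAT (the box bound by NF-Y) and GAANNTTC (a unit of the heat shock element).
Psme3, chr11:101315963-101316212, plus strand: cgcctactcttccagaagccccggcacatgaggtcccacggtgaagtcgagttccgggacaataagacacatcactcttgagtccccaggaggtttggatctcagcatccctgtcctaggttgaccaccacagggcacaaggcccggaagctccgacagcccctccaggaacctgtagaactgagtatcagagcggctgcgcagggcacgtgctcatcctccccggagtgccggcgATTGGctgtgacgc
Psmd9, chr5:123227940-123228189, plus strand: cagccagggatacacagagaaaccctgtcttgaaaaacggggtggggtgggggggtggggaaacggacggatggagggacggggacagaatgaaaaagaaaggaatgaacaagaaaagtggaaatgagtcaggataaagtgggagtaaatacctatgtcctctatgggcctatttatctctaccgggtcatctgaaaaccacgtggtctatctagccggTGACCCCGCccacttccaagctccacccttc
Psmd8, chr7:29180674-29180923, minus strand: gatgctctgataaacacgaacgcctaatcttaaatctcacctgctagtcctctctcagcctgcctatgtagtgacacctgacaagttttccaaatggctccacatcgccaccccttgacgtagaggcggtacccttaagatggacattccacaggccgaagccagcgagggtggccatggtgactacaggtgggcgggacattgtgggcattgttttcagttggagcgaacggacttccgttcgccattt
Psmd11, chr11:80428365-80428614, plus strand: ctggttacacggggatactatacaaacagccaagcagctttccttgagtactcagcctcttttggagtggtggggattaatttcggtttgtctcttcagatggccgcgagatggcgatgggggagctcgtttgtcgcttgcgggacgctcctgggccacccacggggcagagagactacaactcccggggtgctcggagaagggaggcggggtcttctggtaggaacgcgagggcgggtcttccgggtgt
Psme4, chr11:30771525-30771774, plus strand: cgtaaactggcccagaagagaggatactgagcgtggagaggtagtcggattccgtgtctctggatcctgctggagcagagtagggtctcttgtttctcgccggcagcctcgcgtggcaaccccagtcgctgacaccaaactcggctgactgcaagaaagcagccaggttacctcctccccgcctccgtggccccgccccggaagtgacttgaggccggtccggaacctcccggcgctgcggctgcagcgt
Psmd5, chr2:34870963-34871212, minus strand: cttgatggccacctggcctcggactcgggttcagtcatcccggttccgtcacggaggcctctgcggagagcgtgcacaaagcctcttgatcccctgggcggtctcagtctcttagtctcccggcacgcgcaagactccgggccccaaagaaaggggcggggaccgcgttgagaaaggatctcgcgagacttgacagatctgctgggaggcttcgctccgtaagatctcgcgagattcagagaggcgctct
Psmc6, chr14:45329574-45329823, plus strand: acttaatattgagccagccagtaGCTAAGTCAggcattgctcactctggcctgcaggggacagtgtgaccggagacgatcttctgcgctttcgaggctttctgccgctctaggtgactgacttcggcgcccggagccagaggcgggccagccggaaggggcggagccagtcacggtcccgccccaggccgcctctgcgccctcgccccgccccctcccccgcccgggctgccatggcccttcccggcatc
Psma1, chr7:114276117-114276366, minus strand: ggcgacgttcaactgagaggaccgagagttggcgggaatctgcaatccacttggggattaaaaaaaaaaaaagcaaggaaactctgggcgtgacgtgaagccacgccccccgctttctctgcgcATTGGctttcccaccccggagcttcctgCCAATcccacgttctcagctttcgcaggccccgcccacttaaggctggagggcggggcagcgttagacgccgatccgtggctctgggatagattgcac

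Among these 8 regions, Psma1 held 2 matches to CCAAT, Psme3 held 1, and Psmc6 and Psmd9 held 1 match each to TGACNNNGC, while the others held no match to the 3 motifs. RefSeq windows were matched for 33 of the 39 members. Before the start, TGACNNNGC was found in 5 of the 33 (15.2%), namely Psmb5, Psmb6, Psmc6, Psmd9 and Psmd12, against 11.5% of the 27025 genes with a window. CCAAT was found in 12 of the 33 members (36.4%) against 37.5% of all genes, and GAANNTTC in Psmb5 alone (3.03%) against 7.73%. A match describes the letters and is no proof of binding.

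Levels were compared per length. Mean CPM per kb of annotated exon had a median of 29.6 in the alpha ring, 33.4 in the beta ring, 39.1 in the ATPases, 22.4 in the non-ATPase genes and 17.8 in the activators. Among the 14 constitutive subunits of the 20S core, which are present in equal numbers in the particle, it ran from 15.4 for Psma2 to 80.8 for Psmb5, a ratio of 5.24. Divided by the longest transcript instead, the medians were 60.1, 50.9, 47.9, 41.2 and 22.0 CPM per kb, which changes the order of the classes, and Psmb4 was highest at 126.5. The low end did not depend on that choice for Psmb10, the interferon-inducible beta subunit, which was lowest of the beta ring under both lengths with 9.50 CPM per kb of exon and 12.4 per kb of the longest transcript. Psmd5 (4.45), Psmd10 (4.98) and Psmd9 (5.89), which are chaperones of 19S assembly rather than subunits of the finished particle, were the 3 lowest of the non-ATPase genes in CPM per kb of exon.

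**Figure D1:**
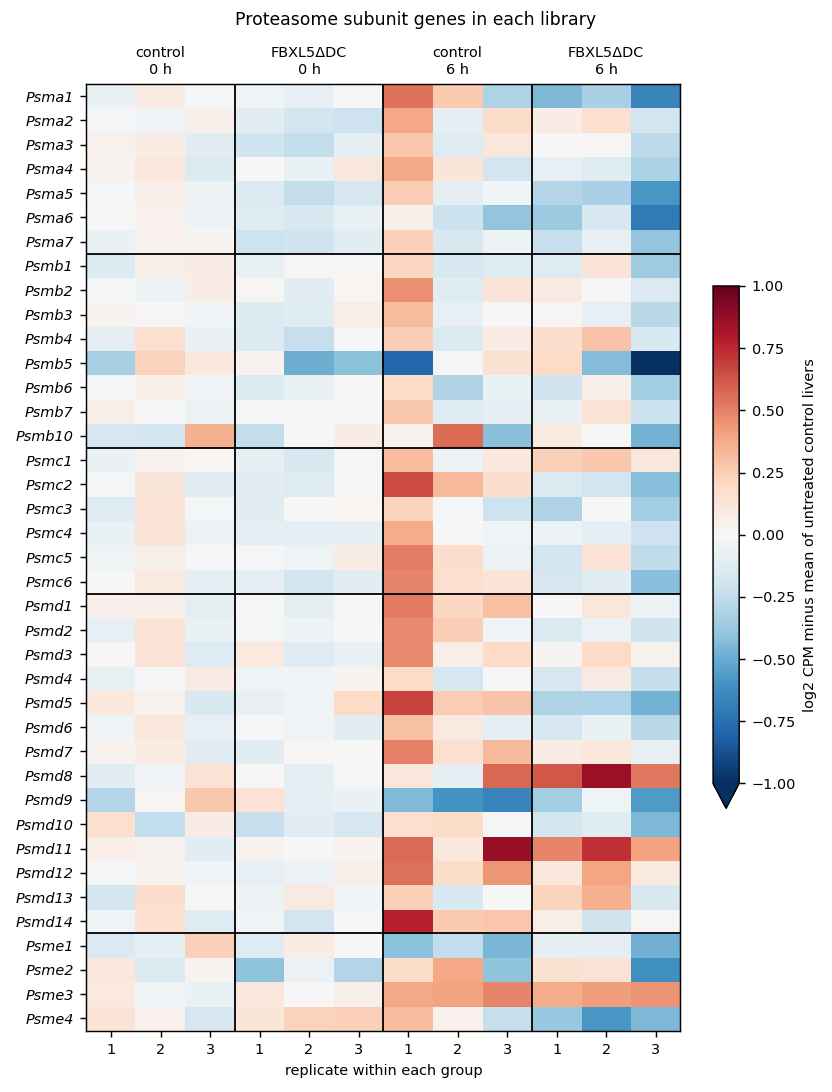
Heat map of the 39 members (rows, by class) in the 12 libraries (columns, by group), coloured by log2 CPM minus the mean of the untreated control libraries (scale from -1 to 1, with Psmb5 in 1 library below the scale). Replicate 1 of the treated control group is red for most members and replicate 3 of the treated FBXL5ΔDC group is blue for most, while the untreated libraries are pale.

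In control livers, acetaminophen moved few proteasome genes past the test. Psme3, which encodes the nuclear activator PA28 gamma, rose, and Psmd9, a chaperone of 19S base assembly, fell. The 19S genes mostly had positive changes that did not pass, and no 20S gene passed. Psme3 had 55.3, 50.7 and 49.5 CPM in the untreated control libraries and 67.6, 68.6 and 72.8 CPM at 6 h. The groups did not overlap, and the change was 0.43 on the log2 scale (SE 0.10, edgeR adjusted p = 0.0157), or 1.34-fold. Psmd9 had 39.9, 49.5 and 59.0 CPM at 0 h and 35.9, 32.3 and 30.8 CPM at 6 h. All treated libraries were lower, and Psmd9 fell by 0.58 on the log2 scale (SE 0.17, adjusted p = 0.0414). Its exons share 25.5% of their bases with Gm26745 on the opposite strand, and whether the counting used strand is not given in the sources used here. Psmd9 was called under 7 of 18 settings. Leaving out any 1 of the treated control libraries ended the Psmd9 call (without replicate 3, log2 change -0.54, adjusted p = 0.076). So did leaving out any 1 of the untreated FBXL5ΔDC libraries or treated FBXL5ΔDC replicate 1. Leaving out untreated control replicate 2 or 3 ended the calls of both Psmd9 and Psme3. Calls over all genes were then fewer as well. Without untreated control replicate 2 they were 449 higher and 314 lower, and without replicate 3 of that group 489 and 367, against 1118 and 739 with all libraries.

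So 1 of the 39 members was called higher and 1 lower in control livers, against 10.6% of the 17585 tested genes called in either direction (6.36% higher, 4.2% lower). Positive changes were found for 33 of the 39, with a median log2 change of 0.11 against 0.033 for all tested genes. With upper quartile scaling 25 of the 39 were positive, and their median was 0.039 against -0.035 for all genes, so both medians moved down. An unadjusted p below 0.05 was found for 10 members (8 higher, 2 lower), against 24.7% of tested genes (14.4% higher, 10.3% lower). The libraries of the groups did not overlap for 9 members that were higher and 2 that were lower, together 28.2% of members against 28.7% of tested genes (15.3% higher, 13.4% lower). The changes were small, since 37 of the 39 (94.9%) lay within 0.5 on the log2 scale against 57.8% of tested genes. Among the 7707 tested genes in the members' range of mean CPM, the share was 71.0%. Without replicate 3 of the treated control group, 4 members were called higher (Psma1, Psmc2, Psmd14 and Psme3) and none lower, against 9.08% of all genes (5.23% higher, 3.86% lower), and the median was 0.17. Without replicate 1 the median was 0.0065 and 22 of the 39 changes were positive, so the median was near 0 without that library. Without replicate 2, 6 members were called higher, namely Psmd1, Psmd7, Psmd11, Psmd12, Psmd14 and Psme3. Over all genes 1361 were then called higher and 809 lower, against 1118 and 739 with all libraries. DESeq2 called 4 members higher and 1 lower, and over all genes 1721 higher and 1222 lower.

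The lid subunit Psmd11, known as limiting for 26S assembly, had the largest positive change in control livers. It had 106, 104 and 94.4 CPM at 0 h and 150.1, 109 and 185 CPM at 6 h. No treated library fell into the untreated range, but replicate 2 lay close to it, and the log2 change of 0.55 (SE 0.16) did not pass (adjusted p = 0.0512). Changes just short of the threshold were also measured for the lid subunit Psmd12 (log2 change 0.40, adjusted p = 0.0561), the scaffold subunit Psmd1 (0.35, 0.0645), the deubiquitinase Psmd14 (0.45, 0.0758) and its partner Psmd7 (0.33, 0.0828). The base ATPase Psmc2 and the base chaperone Psmd5 were close behind, at 0.40 (0.0793) and 0.42 (0.0818).

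**Figure D2:**
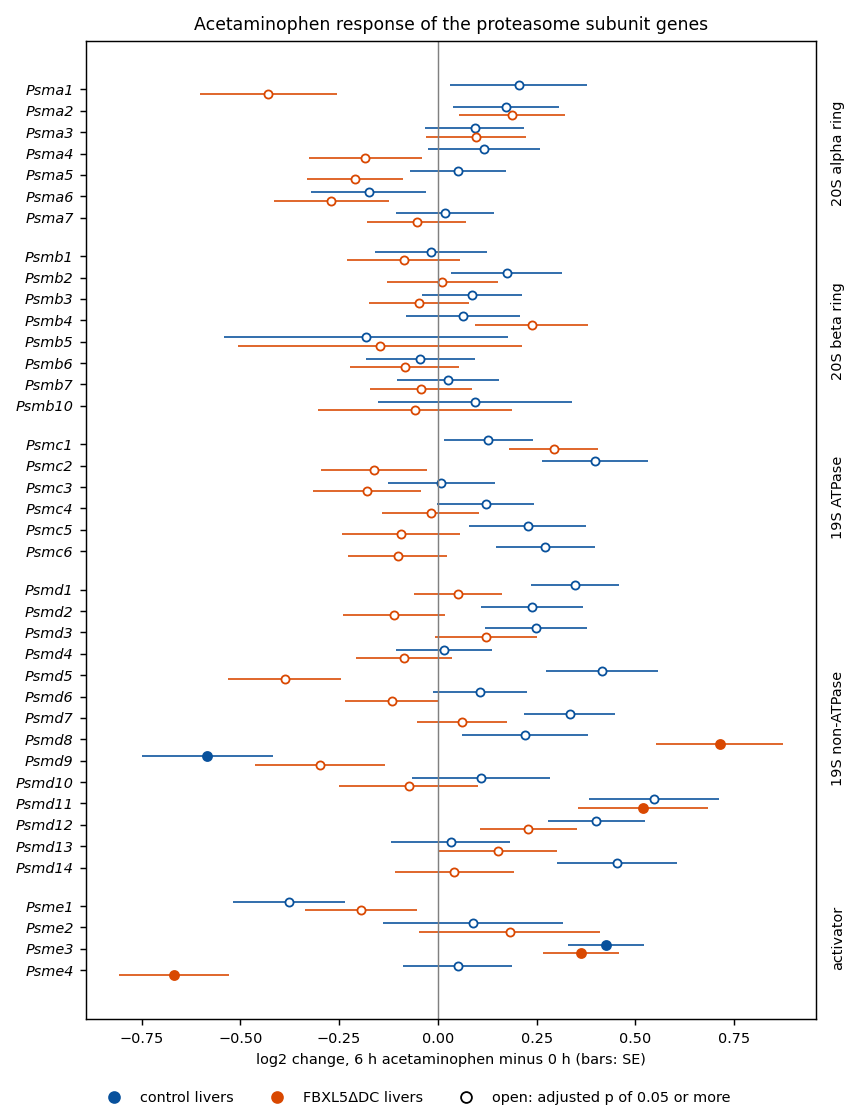
Log2 change from 0 h to 6 h (horizontal axis, bars are SE) of each member by class, in control livers (blue) and in FBXL5ΔDC livers (orange), with filled points where the adjusted p was below 0.05. Most blue points of the 19S classes lie right of 0, and Psme3 is the member filled in both colours.

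In FBXL5ΔDC livers, the response of the proteasome genes was mixed in sign. Psme3 and the lid subunits Psmd8 and Psmd11 rose by 1.28- to 1.64-fold, and Psme4, which encodes the activator PA200, fell by 1.59-fold. Psmd8 had 94.9, 88.5 and 94.3 CPM at 0 h and 146, 172 and 137 CPM at 6 h. The groups lay far apart, with a log2 change of 0.71 (SE 0.16, adjusted p = 0.00532). Psmd11 had 104, 102 and 104 CPM at 0 h and 142, 168 and 134 CPM at 6 h, again with no overlap (0.52, SE 0.16, adjusted p = 0.0297). Psme3 went from 55.6, 51.5 and 53.6 CPM to 66.8, 69.0 and 70.7 CPM (0.36, SE 0.10, adjusted p = 0.0133). The test of the difference between both rises gave -0.065 (SE 0.14, adjusted p = 0.876). Psme4 had 139, 149 and 151 CPM at 0 h and 97.8, 85.1 and 93.3 CPM at 6 h. Every treated library was below every untreated one, and Psme4 fell by 0.67 on the log2 scale (SE 0.14, adjusted p = 0.00352).

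These were the 3 members called higher and the 1 called lower of 39, against 30.1% of all tested genes (15% higher, 15.1% lower). Positive changes were found for 15 of the 39, and the median log2 change was -0.058 (0.017 for all tested genes). Within 0.5 of 0 lay 36 of the 39 (92.3%), against 43.6% of tested genes and 55.2% of those in the members' range of mean CPM. The libraries of the groups did not overlap for 5 members that were higher and 7 that were lower, a total of 12, against 48.8% of tested genes (24.2% higher, 24.5% lower). An unadjusted p below 0.05 was found for 7 members (4 higher, 3 lower), against 40.4% of tested genes (20.3% higher, 20.1% lower). Psmd8 and Psme4 were called under each of the 18 settings tried. Psmd11 was called under 13, being lost without any 1 of the untreated FBXL5ΔDC libraries or without treated FBXL5ΔDC replicate 1 or 2, and Psme3 under 16, being lost when untreated FBXL5ΔDC replicate 2 or 3 was left out. Without replicate 3 of the treated control group, which enters here through the shared estimate of spread, 4 members were called higher and 3 lower, Psmc1 being added above and Psma1 and Psmd5 below, against 34.1% of all genes (16.9% higher, 17.3% lower). Without replicate 1 of that group, Psma1 and Psmd5 were likewise called lower. Over all genes 2654 were then called higher and 2647 lower, against 2638 and 2648 with all libraries. The sign of the median rested on treated FBXL5ΔDC replicate 3, without which it was 0.024 and 24 of the 39 changes were positive.

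Before treatment, no member differed between the genotypes by the edgeR test, and none had an unadjusted p below 0.05. DESeq2 called no member either. By edgeR, no tested gene passed at 0 h (0%), and 2.64% had an unadjusted p below 0.05 (1.22% higher, 1.43% lower). Over all genes, DESeq2 called 9 higher and 7 lower, and edgeR fitted on the untreated groups alone called 3 higher and 0 lower. After TMM scaling, the differences were small but mostly of 1 sign. Of the 39, 6 were positive, with a median log2 difference of -0.039, against 8588 of the 17585 tested genes and a median of -0.0038. All 39 lay within 0.5 of 0, against 78.9% of tested genes and 97.6% of those in the members' range of mean CPM. The count of positive members moved with single libraries, to 14 without untreated control replicate 2, 13 without untreated FBXL5ΔDC replicate 1 and 10 without untreated FBXL5ΔDC replicate 2, and the median stayed between -0.085 and -0.022 when any 1 library was left out. For 6 members every FBXL5ΔDC library was below every control library, against 5.8% of tested genes, and 4 of those were alpha subunits. No member lay wholly above, against 5.94% of tested genes. Psma5 had 56.6, 59.4 and 55.0 CPM in control and 51.5, 48.4 and 50.8 CPM in FBXL5ΔDC livers (log2 difference -0.18, SE 0.12, adjusted p = 1). Psma7 had 92.6, 99.8 and 98.7 CPM against 83.9, 84.5 and 89.6 CPM (-0.17, SE 0.12, adjusted p = 1). Psma3 had 73.7, 75.2 and 66.1 CPM against 62.5, 60.8 and 66.8 CPM, which overlap.

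At 6 h after acetaminophen, 5 members were lower in FBXL5ΔDC than in control livers, and none was higher. They were the base chaperone Psmd5, the base ATPases Psmc2 and Psmc6, the alpha subunit Psma1 and the activator gene Psme4. Psmd5 had 49.7, 37.1 and 38.0 CPM in treated control livers and 25.1, 25.2 and 22.5 CPM in treated FBXL5ΔDC livers. It was 1.72-fold lower, with a log2 difference of -0.78 (SE 0.14, adjusted p = 0.0115). Psmc2 had 126, 99.9 and 90.5 CPM against 72.2, 70.0 and 59.5 CPM (-0.65, SE 0.13, adjusted p = 0.0189). Psmc6 had 111, 88.7 and 86.1 CPM against 69.9, 72.6 and 58.9 CPM (-0.50, SE 0.13, adjusted p = 0.0361). In all 3 the groups were apart, and control replicate 1 was the highest library. Psma1 had 111, 91.8 and 61.7 CPM against 55.9, 60.9 and 48.5 CPM, so that control replicate 3 lay just above the FBXL5ΔDC range (-0.68, SE 0.17, adjusted p = 0.0394). Psme4 had 158, 131 and 108 CPM against 97.8, 85.1 and 93.3 CPM (-0.52, SE 0.14, adjusted p = 0.0445). Here too the lowest control library was replicate 3.

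**Figure D3:**
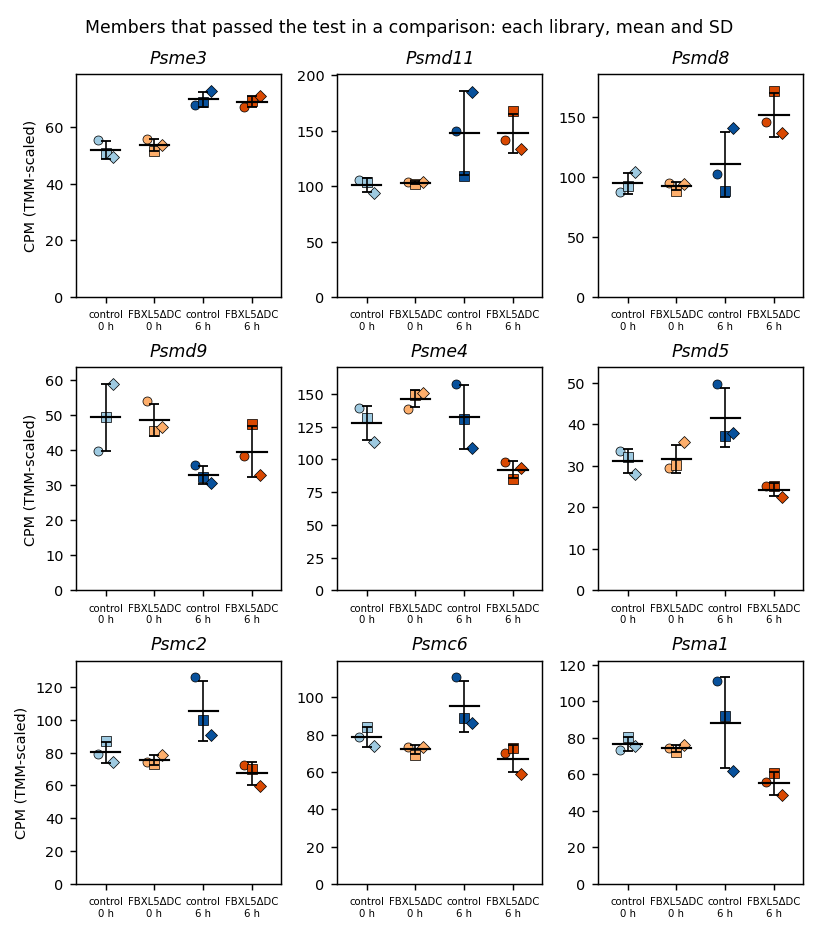
CPM (vertical axes, from 0) of the 9 members that passed the test in 1 or more comparisons, for each library (circle, square and diamond for replicates 1, 2 and 3), with the mean (line) and SD (bars) of each group. Psme3 is higher at 6 h in both genotypes, Psmd8 is highest in treated FBXL5ΔDC livers, and Psmd5, Psmc2, Psmc6 and Psma1 are lower in treated FBXL5ΔDC than in treated control livers.

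The 5 lower calls of 39 compare with 5.86% of tested genes called at 6 h (4.51% lower, 1.35% higher). Negative differences were found for 33 of the 39, the median log2 difference was -0.22 against -0.014 for all tested genes, and for 12 members the FBXL5ΔDC libraries lay wholly below the control libraries, against 11.2% of tested genes. No member lay wholly above, against 9.74% of tested genes (21% in either direction). An unadjusted p below 0.05 was found for 12 members (1 higher, 11 lower), against 22.7% of tested genes (8.69% higher, 14% lower). Without replicate 3 of the treated control group, 12 members were called lower and 1 higher, against 23% of all genes (12.9% lower, 10.1% higher), and the median was -0.28. The lower ones were Psma1, Psma4, Psma5, Psmc2, Psmc5, Psmc6, Psmd1, Psmd2, Psmd5, Psmd6, Psmd14 and Psme4, and the higher one was Psmd8 (log2 difference 0.67, adjusted p = 0.00197). Leaving out treated control replicate 1 moved the count the other way, to Psmd5 alone, with a median of -0.11. Psmd5 alone was also called without treated FBXL5ΔDC replicate 2 or 3, and 2 members (Psmc2 and Psmd5) were called when any of the other 8 libraries was left out. Except for the fit without treated control replicate 3, the shares of all genes called in these fits are not given here. How far the member counts moved with all genes cannot be read from them. Psmd5 was called under 17 of 18 settings, Psmc2 under 14, Psmc6 under 5, Psma1 under 4 and Psme4 under 2. Fitted on the treated groups alone, no member was called at 6 h, and over all genes 0 were called higher and 6 lower. DESeq2 called 7 members lower, namely Psma1, Psma5, Psmc2, Psmc6, Psmd5, Psmd14 and Psme4, and 0 higher. Over all genes it called 752 higher and 1500 lower at 6 h.

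The test of whether the response differed between the genotypes called none of the 39 members, while 0.29% of tested genes passed (0.0341% higher, 0.256% lower). By edgeR, 5 members had an unadjusted p below 0.05 (1 higher, 4 lower), against 14.5% of tested genes (5.2% higher, 9.26% lower), and DESeq2 called 2 (Psmd5 and Psme4). The differences in response were -0.80 for Psmd5 (SE 0.20, adjusted p = 0.105), -0.72 for Psme4 (SE 0.20, adjusted p = 0.13) and -0.56 for Psmc2 (SE 0.19, adjusted p = 0.203), and the median of the members was -0.13. Without replicate 3 of the treated control group, 4 members had a lower response (Psma1, Psmc2, Psmd5 and Psme4) and 1 a higher one (Psmd8), against 13.7% of all genes (5.97% higher, 7.74% lower). That group then had 2 libraries, and their spread was taken to be like that of the other groups.

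Among the alpha ring genes, which build the gate of the core, no call was made in either response to acetaminophen. Psma1 had the largest positive change in control livers (log2 change 0.21, SE 0.17) and the most negative in FBXL5ΔDC livers (-0.43, SE 0.17, adjusted p = 0.0815). Psma6 had the lowest change in control livers. It had 97.8, 101 and 94.0 CPM at 0 h and 101, 84.0 and 74.3 CPM at 6 h (-0.17, SE 0.15). In the FBXL5ΔDC group it went from 89.1, 87.3 and 92.6 to 75.9, 87.4 and 59.7 CPM, with overlap. Psma2 had 55.6, 54.9 and 58.1 CPM in untreated and 73.6, 52.4 and 64.0 CPM in treated control livers. FBXL5ΔDC livers had 52.1, 49.6 and 48.7 CPM and then 59.2, 62.8 and 49.3 CPM, the highest change of the ring there at 0.19 (SE 0.13). Psma5 in treated livers was at 68.0, 53.2 and 56.0 CPM in control and 46.5, 45.6 and 38.1 CPM in FBXL5ΔDC mice, without overlap and just short of the test (log2 difference -0.45, adjusted p = 0.0509).

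The beta ring holds the cutting sites, and none of its 8 genes was called in any comparison by edgeR, none had an unadjusted p below 0.05, and DESeq2 made no call among them. The 7 constitutive ones are Psmb1 to Psmb7. Psmb6, the subunit with caspase-like activity, had 90.6, 94.7 and 89.0 CPM in untreated control, 83.0, 86.6 and 91.9 CPM in untreated FBXL5ΔDC, 104, 74.2 and 87.5 CPM in treated control and 79.8, 94.99 and 72.0 CPM in treated FBXL5ΔDC livers. Psmb7, the subunit with trypsin-like activity, was at 103 ± 3.96, 103 ± 0.321, 105 ± 17.1 and 100.4 ± 12.3 CPM in the same order (mean ± SD, n = 3 per group). Those means differed by less than the spread of the treated groups. Psmb4 had 135, 126 and 147 CPM in untreated and 167, 180.2 and 133 CPM in treated FBXL5ΔDC livers, the highest change of the ring there at 0.24 (SE 0.14). Psmb2 had 42.5, 41.5 and 45.3 CPM in untreated and 59.2, 39.6 and 47.1 CPM in treated control livers, where replicate 1 alone lay clearly above.

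Psmb5, the subunit with chymotrypsin-like activity and the target of proteasome inhibitors, varied most between replicates. Its libraries were at 66.2, 97.7 and 89.5 CPM in untreated control livers, 85.6, 59.3 and 62.7 CPM in untreated FBXL5ΔDC livers, 48.3, 82.4 and 92.9 CPM in treated control livers and 95.1, 61.7 and 30.8 CPM in treated FBXL5ΔDC livers. Its coefficient of variation within groups averaged 30.7%, and 93.9% of 7704 tested genes in the members' range of CPM had a lower one. Psmb10 followed at 21.8% and Psme2 at 18.7%, whereas Psme3 was lowest of the 39 members at 4.12%, and 0.493% of those genes had a lower one. The medians of the members were 7.28%, 4.48%, 15.2% and 11.3% in untreated control, untreated FBXL5ΔDC, treated control and treated FBXL5ΔDC livers, and the other genes at that level had 9.99%, 8.01%, 18.4% and 13.2%. The exons of Psmb5 share 12.1% of their bases with the microRNA gene Mir686 on the same strand.

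**Figure D4:**
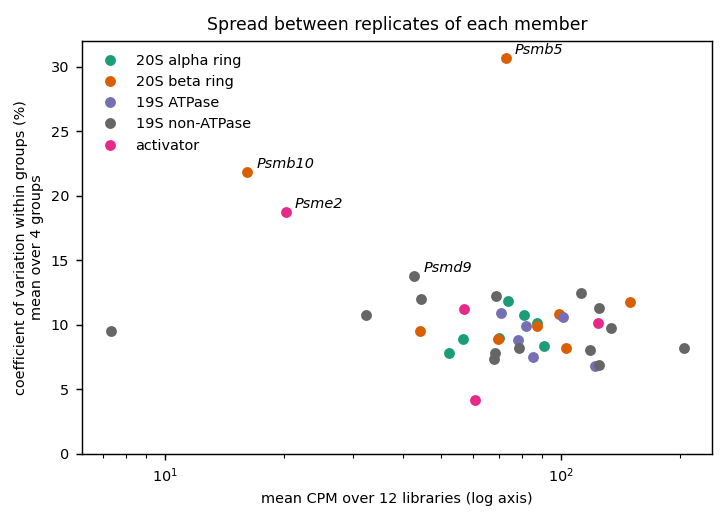
Coefficient of variation within groups (vertical axis, %, mean over the 4 groups) against mean CPM (horizontal log axis) of the 39 members, coloured by class. Psmb5 lies highest at 30.7% at a CPM like that of most others, and Psme3 lies lowest at 4.12%.

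The ATPases form the ring that unfolds substrates. All 6 had positive changes in control livers, of 0.0082 (Psmc3) to 0.40 (Psmc2), and 1 of the 6 was positive in FBXL5ΔDC livers. That one was Psmc1, with 110.1, 104 and 116 CPM at 0 h and 138, 141 and 126 CPM at 6 h, which do not overlap (0.29, SE 0.11, adjusted p = 0.0668). Psmc3 had 96.5, 116 and 104 CPM in untreated and 123, 105 and 91.3 CPM in treated control livers. FBXL5ΔDC livers had 97.3, 105 and 107 CPM and then 85.3, 105 and 83.2 CPM, the lowest change of the ring (-0.18, SE 0.14). Psmc2 at 0 h had 79.0, 87.0 and 74.3 CPM in control and 74.2, 72.9 and 78.7 CPM in FBXL5ΔDC livers. Against these ranges, all treated control libraries of Psmc2 were higher and all treated FBXL5ΔDC libraries lower. Psmc6 at 0 h had 78.6, 84.2 and 73.6 CPM and 73.5, 69.2 and 73.3 CPM, so its treated control libraries were also above their range. Psmc4 and Psmc5 had changes between -0.093 and 0.23 in both genotypes.

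Of the 14 Psmd genes, 13 had positive changes in control livers and 8 in FBXL5ΔDC livers, with medians of 0.24 and 0.046. Psmd5 at 0 h had 33.5, 32.0 and 28.0 CPM in control and 29.4, 30.1 and 35.6 CPM in FBXL5ΔDC livers. All its treated control libraries lay above and all its treated FBXL5ΔDC libraries below these values, with changes of 0.42 and -0.39 (SE 0.14 each). Neither passed (adjusted p = 0.0818 and 0.0563). Psmd8 in control livers had 87.6, 92.8 and 105 CPM at 0 h and 102, 88.8 and 141 CPM at 6 h. The treated library at 141 CPM was replicate 3, the one that lay beside the FBXL5ΔDC libraries, and without it the log2 change in control livers went from 0.22 to 0.0074. Psmd9 in FBXL5ΔDC livers had 54.0, 45.6 and 46.6 CPM at 0 h and 38.4, 47.5 and 33.0 CPM at 6 h (-0.30, SE 0.16), with overlap.

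The other 10 Psmd genes comprise the scaffold subunits Psmd1 and Psmd2, the ubiquitin receptor Psmd4, the lid subunits Psmd3, Psmd6, Psmd12 and Psmd13, the deubiquitinase pair Psmd7 and Psmd14 and the chaperone Psmd10. The highest of the 39 in mean CPM was Psmd2, whose groups were at 201 ± 17.9, 198 ± 3.67, 237 ± 40.9 and 183 ± 8.59 CPM (mean ± SD, n = 3, untreated control, untreated FBXL5ΔDC, treated control, treated FBXL5ΔDC). Psmd10 was lowest, at 7.71 ± 1.11, 6.79 ± 0.283, 8.31 ± 0.627 and 6.45 ± 0.76 CPM. Psmd14 was at 41.4 ± 4.53, 39.1 ± 2.54, 56.6 ± 11.9 and 40.2 ± 3.84 CPM, so that the treated control group stood above the others. Its difference between the genotypes at 6 h was -0.49 (adjusted p = 0.0746). Psmd13 was nearly level, between 66.7 ± 3.56 and 74.0 ± 12.9 CPM, and its exons share 10.1% of their bases with Sirt3 on the opposite strand.

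Psme1 and Psme2 encode PA28 alpha and beta, which cap the core and are induced by interferon gamma. Psme1 had 56.7, 58.7 and 73.6 CPM in untreated and 47.2, 52.7 and 45.6 CPM in treated control livers, without overlap, and its change of -0.38 (SE 0.14) did not pass (adjusted p = 0.113). In FBXL5ΔDC livers it had 57.1, 66.0 and 62.9 CPM and then 58.8, 58.9 and 44.7 CPM. Psme2 had 22.6, 18.97 and 21.3 CPM, then 23.7, 27.4 and 15.8 CPM in control livers, and 15.9, 20.0 and 17.1 CPM, then 23.2, 23.1 and 13.7 CPM in FBXL5ΔDC livers. The near copy Psme2b had 11.7 to 26.1 CPM, so the split of reads between both genes is uncertain. Psmb10, which replaces Psmb7 in the immunoproteasome, had 14.4, 14.2 and 20.8 CPM and 16.7, 23.9 and 12.1 CPM in control livers at 0 h and 6 h. FBXL5ΔDC livers had 13.7, 16.2 and 17.1 CPM and 17.2, 16.3 and 11.7 CPM. None of the 3 inducible genes was called in any comparison, and leaving them out kept the counts of calls at 1 higher and 1 lower in control livers, 3 and 1 in FBXL5ΔDC livers, and 5 lower between genotypes at 6 h.

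Of 6 interferon gamma response genes set beside them, 3 were called higher with acetaminophen in FBXL5ΔDC livers (15% of tested genes) and none in control livers (6.36%), where edgeR gave 1 unadjusted p below 0.05. The guanylate-binding protein genes Gbp2 and Gbp3 and the transcription factor gene Irf1 were the higher ones. Irf1 had 15.1, 11.8 and 11.01 CPM at 0 h and 24.6, 21.8 and 20.3 CPM at 6 h in FBXL5ΔDC livers (log2 change 0.82, SE 0.16, adjusted p = 0.00229). In control livers it had 16.5, 14.3 and 14.8 CPM, then 13.5, 11.8 and 11.05 CPM. The treated libraries thus lay above the untreated ones in FBXL5ΔDC livers and below them in control livers, where the change of -0.33 did not pass (adjusted p = 0.222). At 6 h, 2 of the 6 were higher in FBXL5ΔDC than in control livers, against 1.35% of tested genes, namely Irf1 (log2 difference 0.88, adjusted p = 0.0108) and Gbp3 (1.72, adjusted p = 0.0466, called under 4 of 18 settings). Leaving out treated control replicate 3 gave 3 higher at 6 h and 1 lower, Igtp (-0.67, adjusted p = 0.0309), against 10.1% and 12.9% of all genes, and 3 with a higher response in the interaction, against 5.97%. The median change of the 6 in control livers then went from 0.22 to -0.26.

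Summed over the 39 members, the level was 3159 ± 128 CPM in untreated control, 3049 ± 70.2 in untreated FBXL5ΔDC, 3480 ± 399 in treated control and 3056 ± 298 CPM in treated FBXL5ΔDC livers (n = 3 each). The treated groups spread more than the untreated ones in these sums. They depend on the TMM factors, with means of 1.06, 0.960, 1.07 and 0.921 in the same order. As a share of unscaled counts, the members held 0.335%, 0.293%, 0.373% and 0.280% (means). At 0 h these shares did not overlap, at 0.324% to 0.342% in control and 0.285% to 0.299% in FBXL5ΔDC livers. Within the treated control group, replicate 1 had 3936 CPM, and 36 of the 39 members there lay above the untreated control mean, with a median of 0.31 on the log2 scale. In replicates 2 and 3 the numbers above were 20 and 19. In the treated FBXL5ΔDC group they were 16, 19 and 7, with a median of -0.28 in replicate 3. Replicates thus differed from each other by shifts that many members shared. The part that the cell make-up, marked by the hepatocyte sums above, has in these shifts was not tested. Leukocyte markers summed to 16.0 to 24.1 CPM at 0 h, 24.4 to 33.4 CPM in treated control and 32.2 to 44.9 CPM in treated FBXL5ΔDC livers, with all 5 markers detected in each library. Neutrophil markers summed to 0.13 to 0.59 CPM at 0 h, 1.39 to 2.17 CPM in treated control and 1.39 to 7.30 CPM in treated FBXL5ΔDC livers, with Ly6g at 0 in all but 1 library. Markers of other liver cells also moved with the groups. The cholangiocyte markers summed to 4.60 to 8.24 CPM at 0 h, 17.7 to 45.8 CPM in treated control and 44.5 to 211 CPM in treated FBXL5ΔDC livers. For sinusoidal endothelium the sums were 64.9 to 80.7, 70.7 to 134 and 155 to 198 CPM, and for stellate cells 49.9 to 115, 93.4 to 149 and 165 to 204 CPM. Replicate 3 was the highest treated control library in all 3 of these sums. All 3 cholangiocyte, 4 endothelial and 4 stellate markers were detected in each library. The sums of the 6 Kupffer cell markers were 90.7 to 112 CPM in untreated control and 110 to 146 CPM in untreated FBXL5ΔDC livers. At 6 h they were 118 to 151 CPM in control and 123 to 223 CPM in FBXL5ΔDC livers. Both treated groups thus lay above untreated control livers, and both overlapped with untreated FBXL5ΔDC livers. The part of these cells in the results was not tested.

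Lists of genes that work with the proteasome were set beside the subunits, against the same background shares as given above for each comparison. The gene Ubb encodes ubiquitin as a polyubiquitin precursor. It had 591, 705 and 658 CPM in untreated control livers and 1127, 829 and 946 CPM after acetaminophen. In FBXL5ΔDC livers it had 575, 641 and 666 CPM at 0 h and 358, 395 and 345 CPM at 6 h. Every treated control library was above, and every treated FBXL5ΔDC library below, all untreated ones. The changes were 0.57 (SE 0.13, adjusted p = 0.0185) and -0.78 (SE 0.13, adjusted p = 0.00126), and the difference between the responses passed the test (-1.35, SE 0.19, adjusted p = 0.0293). Without replicate 3 of the treated control group this difference in response was -1.37 (adjusted p = 0.000535). The interaction was called for Ubb under 10 of 17 settings. Of 4 genes of ubiquitin and its activation, Ubb was the 1 called higher in control livers and the 1 called lower in FBXL5ΔDC livers. The ribosomal fusion gene Rps27a and the activating enzyme genes Uba1 and Uba6 made no call.

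**Figure D5:**
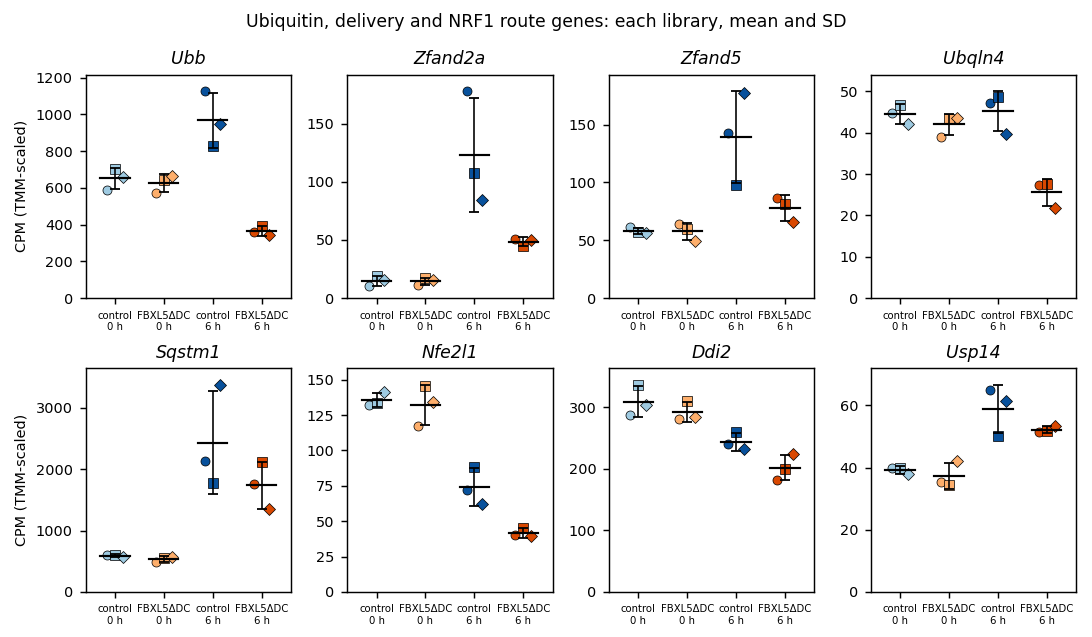
CPM (vertical axes, from 0) of 8 genes of the ubiquitin, delivery, NRF1 and associated lists, chosen after their values were seen, for each library (circle, square and diamond for replicates 1, 2 and 3), with the mean (line) and SD (bars) of each group. Ubb lies above its untreated range in treated control livers and below it in treated FBXL5ΔDC livers, while Sqstm1 is higher at 6 h in both genotypes and Nfe2l1 is lower.

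Of 13 genes that deliver ubiquitinated proteins, 4 were called higher in control livers and none lower, and in FBXL5ΔDC livers 2 were called higher and 1 lower. Zfand2a, a zinc finger protein that associates with the proteasome under stress, had 10.2, 18.7 and 15.4 CPM in untreated control livers and 178, 107 and 84.1 CPM at 6 h (log2 change 3.06, SE 0.30, adjusted p = 0.000179). In FBXL5ΔDC livers it rose from 10.9, 17.0 and 15.5 to 51.1, 44.4 and 50.3 CPM (1.75, SE 0.28, adjusted p = 0.000943). Sqstm1, the autophagy receptor for ubiquitin, rose in both genotypes, by 2.04 (SE 0.22) and 1.70 (SE 0.22) on the log2 scale. Zfand5, a proteasome activator, rose in control livers (1.26, SE 0.19, adjusted p = 0.00195), and Nploc4, a cofactor of the VCP segregase, rose there by 0.45 (SE 0.12, adjusted p = 0.038), a call made under 4 of 18 settings and lost without treated control replicate 3 (0.36, adjusted p = 0.0848). Without that library the changes in control livers were 3.27 for Zfand2a (adjusted p = 6.31e-05) and 1.05 for Zfand5 (adjusted p = 0.00126). The shuttle gene Ubqln4 fell in FBXL5ΔDC livers, by 0.72 (SE 0.13, adjusted p = 0.00148). At 6 h, 4 of the 13 were lower in FBXL5ΔDC than in control livers, namely Zfand2a, Zfand5, Ubqln1 and Ubqln4, and without replicate 3 of the treated control group 6 were. The call at 6 h was made under 17 of 18 settings for Ubqln4, 13 for Zfand2a, 13 for Zfand5 and 8 for Ubqln1.

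Of 10 genes of the NRF1 route, which is known to control the subunit genes, 2 were called higher and 1 lower in control livers, and 2 higher and 3 lower in FBXL5ΔDC livers. Nfe2l1, which encodes NRF1, had 132, 134 and 141 CPM in untreated control livers and 71.9, 88.3 and 62.0 CPM at 6 h (log2 change -0.87, SE 0.14, adjusted p = 0.00247). In FBXL5ΔDC livers it went from 117, 145 and 134 to 39.9, 45.5 and 39.4 CPM (-1.67, SE 0.14, adjusted p = 2.2e-05). The treated libraries of both genotypes were all below the untreated ones, and the treated FBXL5ΔDC livers were below the treated control livers as well (-0.83, SE 0.14, adjusted p = 0.00775). With treated control replicate 3 left out, the change in control livers was -0.76 (adjusted p = 0.00229). Ddi2, the protease that releases active NRF1, fell in FBXL5ΔDC livers by 0.53 (SE 0.11, adjusted p = 0.00425). Keap1, the inhibitor of NRF2, fell there by 0.61 (SE 0.13, adjusted p = 0.00395). The small MAF genes Maff and Mafk, whose proteins pair with NRF factors, were the ones that rose, Maff by 5.12 and 5.64 and Mafk by 2.26 and 3.13 in control and FBXL5ΔDC livers.

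Of 13 assembly and associated factors, 1 was called higher in each genotype, and 2 were called lower in FBXL5ΔDC livers. The gene called higher was Usp14, a deubiquitinase bound to the 19S particle, in both. Usp14 had 39.9, 39.99 and 37.9 CPM, then 65.0, 50.1 and 61.3 CPM in control livers (0.58, SE 0.12, adjusted p = 0.0114). In FBXL5ΔDC livers it had 35.3, 34.4 and 42.1 CPM, then 51.5, 51.8 and 53.4 CPM (0.49, SE 0.12, adjusted p = 0.01). The alpha ring chaperone Psmg1 fell in FBXL5ΔDC livers, from 16.1, 16.4 and 16.8 to 10.7, 9.93 and 10.2 CPM (-0.68, SE 0.14, adjusted p = 0.00352), and the adaptor Ecpas fell by 0.51 (SE 0.14, adjusted p = 0.018). At 6 h Ecpas was lower in FBXL5ΔDC than in control livers (-0.69, SE 0.15, adjusted p = 0.0198), and without replicate 3 of the treated control group 3 genes of this list were. The maturation protein gene Pomp had changes of 0.038 and 0.072 (SE 0.14 each), smaller than their errors.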

How the data were processed

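RNA was sequenced from whole liver in 12 libraries, 3 in each of 4 groups. The submitters' processing notes name Trim Galore (0.6.6), HISAT2 (2.2.1) and the build mm10. The counting program and its strand setting are not given in the sources used here, so overlapping and antisense genes are uncertain. The deposited table holds 1 column of whole-number values per library. The deposited values, treated as estimated counts per gene and used as whole numbers, held 26.5% to 28.5% multiples of 4 among non-zero values examined. That share does not by itself show how the estimated counts were made before the table was deposited. No column (0) belonged to an unlisted sample. Members and lists were chosen with earlier results of these data known. Some genes of the lists are not reported here, and the lists' counts leave them out. Genes were tested with edgeR 4.0.16 (R 4.3.3, limma 3.58.1) by filterByExpr, TMM scaling and the quasi-likelihood test on all 4 groups (8 residual degrees of freedom), with Benjamini-Hochberg adjustment over 17585 genes and a threshold of 0.05. The fit was tested on simulated data. Members were described by library under a fixed rule: the catalytic, inducible and Psme3 and Psme4 genes, the largest and smallest change of each class in both acetaminophen comparisons, and the smallest p-values in the others. Other genes are named for a call, a near call or a left-out library. Alternatives were RLE and upper quartile scaling, no filter, DESeq2 1.42.0, fitting just the compared groups, a replicate block, and leaving out each library.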

Additional observations from a re-analysis of the deposited data

Results flagged for a closer look

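The 4 genes here either passed the test of a difference in response between the genotypes or had all treated libraries on opposite sides of the untreated ones in both genotypes. Ubb passed it, with a difference in log2 response (FBXL5ΔDC minus control) of -1.35 (SE 0.19, edgeR adjusted p = 0.0293). For the other 3 genes the difference did not pass. It was -0.80 for Psmd5 (SE 0.20, adjusted p = 0.105), -0.56 for Psmc2 (SE 0.19, adjusted p = 0.203) and 1.14 for Irf1 (SE 0.22, adjusted p = 0.06).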

How the results depend on the processing

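With DESeq2, 4 members were called higher and 1 lower in control livers, and 4 higher and 2 lower in FBXL5ΔDC livers. It called 7 lower between genotypes at 6 h and 2 lower in the interaction. For the scaling, filter, compared-group and block settings, member counts equal to or within 1.5-fold of the main fit are left out. Fitting just the compared groups gave 0 higher and 0 lower in control livers, 3 lower in FBXL5ΔDC livers and 0 lower between genotypes at 6 h. Upper quartile scaling gave 2 lower in FBXL5ΔDC livers and 2 lower at 6 h. Over all genes it called 2585 higher and 2752 lower in FBXL5ΔDC livers, and 305 and 665 at 6 h. Leaving out each library in turn gave 0 to 6 members higher and 0 to 1 lower in control livers. It gave 1 to 4 higher and 1 to 3 lower in FBXL5ΔDC livers. Between genotypes at 6 h it gave 0 to 1 higher and 1 to 12 lower, and in the interaction 0 to 1 and 0 to 4. Over all genes, these fits called 449 to 1361 higher and 314 to 843 lower in control livers. In FBXL5ΔDC livers they called 1849 to 3117 higher and 1960 to 3188 lower. The ranges over all genes at 6 h and in the interaction are not given here. With each library left out in turn, the medians of the members ran from 0.0065 to 0.17 in control livers and -0.13 to 0.024 in FBXL5ΔDC livers. They ran from -0.085 to -0.022 between genotypes at 0 h, -0.28 to -0.11 at 6 h and -0.20 to -0.020 in the interaction. With the replicate number as a block, 0 members were called lower in control livers and 3 lower between genotypes at 6 h. Over all genes, that fit called 854 higher and 634 lower in control livers, and 196 and 547 at 6 h. Samples sharing a number did not deviate together (correlations from -0.061 to 0.029), so the numbers were not treated as pairing. Over all genes, DESeq2 called 1721 higher and 1222 lower in control livers (edgeR 1118 and 739), 752 and 1500 between genotypes at 6 h (238 and 793), and 228 and 490 in the interaction (6 and 45). In FBXL5ΔDC livers it called 3175 and 3087 (edgeR 2638 and 2648), and between genotypes at 0 h 9 and 7 (0 and 0). Fitting just the compared groups called 235 and 167 in control livers, 3016 and 2987 in FBXL5ΔDC livers, 3 and 0 between genotypes at 0 h, and 0 and 6 at 6 h. Over the results on counts and medians and all settings, 239 values stayed within the margins set and 43 moved. The margins were 1.5-fold for counts and the SD of library medians within groups for median changes. Leaving out a library outside a comparison hardly changes it, and medians under another level threshold were set as unchanged. The tally is therefore no measure of robustness.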
